A study of Sesamum indicum with 6 samples.

Results

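RADIALIS and DIVARICATA genes encode MYB-like transcription factors, and their transcripts were examined in young leaves of sesame (Sesamum indicum) seedlings that differ at the KAN1 locus. The genes were taken from the deposited annotated table as all those whose product name holds RADIALIS or DIVARICATA in any case, which gave 14 of 20661 genes. Of these, 6 are RADIALIS-type, 7 are DIVARICATA-type, and 1 is CENTRORADIALIS, which the wording of the name brings in although its protein is not a MYB factor. It is kept apart below, so that 13 genes fit the family name.

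The SiCD_B group carried the mutant kan1 allele and the SiCD_A group the wild-type KAN1 allele, both homozygous, on linkage group 8. Both groups were recombinant inbred lines, whose plants also differ at loci other than the one selected, and both were sampled as young leaves of seedlings 17 days old, grown in trays with 12 h of light at 28 °C and nights at 22 °C. Each group had 19 plants, and each of its 3 pools mixed equal amounts of RNA from 9 plants drawn at random. With 27 places for 19 plants, at least 8 places repeat a plant used elsewhere in the group, so that p-values reflect the spread among pools with plants in common. Other segments of linkage group 8 inherited with the allele, and chance differences between the plant sets, cannot be told apart from the allele itself.

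RADIALIS and DIVARICATA are best known from the flowers of snapdragon (Antirrhinum). There the TCP factor CYCLOIDEA switches on RADIALIS, a short protein with a single MYB-like domain, on the upper side of the flower. DIVARICATA, a longer MYB-like protein, shapes the lower side, and RADIALIS antagonizes it by binding the partner proteins that DIVARICATA needs. In tomato a RADIALIS-like protein, FSM1, limits cell expansion in the fruit through a similar competition. KANADI proteins specify the lower side of leaves.

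Total counts per pool ran between 74331695 and 82165322 in SiCD_B and between 56123250 and 74705569 in SiCD_A. SiCD_A pool 3 was the shallowest. Levels are given as CPM, counts scaled to a common library size with TMM factors, and differences as log2 fold changes of SiCD_B over SiCD_A from edgeR's quasi-likelihood test, with the Benjamini-Hochberg adjusted p over 21009 tested genes. A gene was called below 0.05. CPM are not divided by gene length, so levels of different genes are not ranked against each other. KAN1 (LOC105167765) itself had 54.4 ± 1.88 CPM in SiCD_B and 22.7 ± 2.30 CPM in SiCD_A (SD, n = 3 pools each). As a check of the tissue, 20 leaf genes, for chlorophyll a-b binding proteins and the small Rubisco subunit, summed to 21944 to 25833 CPM in SiCD_B and 21764 to 32804 CPM in SiCD_A. Root markers, 6 Casparian strip genes, summed to 1.03 to 1.19 CPM in SiCD_B and 0.890 to 1.01 CPM in SiCD_A.

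Among the 6 RADIALIS-type genes, LOC105169642, LOC105166131, LOC105178001 and LOC105159249 fell in the mutant-allele pools, the first 3 of them at least 2-fold. The count filter bears on this tally. LOC105166131 reached the filter's level in 2 SiCD_B pools and 3 SiCD_A pools, and so passed through the group where it was high, while the 2 genes named RADIALIS-like 4 reached it in 2 SiCD_B pools and 0 SiCD_A pools and were not tested. The steepest fall was that of RADIALIS-like LOC105169642, whose mean level in SiCD_A was 7.69 times that in SiCD_B. The RADIALIS-like 4 genes were near the limit of detection and had more counts in all in SiCD_B. Across all tested genes 14.1% were called lower, 16.5% higher and 30.6% in either direction, and 1.68% were called lower by at least 2-fold. For each of the 4 fallen genes every SiCD_B pool was below every SiCD_A pool, and 48.4% of all tested genes had no overlap in one direction or the other. In whole leaf RNA, fewer cells that express a gene and less transcript per cell cannot be told apart.

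RADIALIS-like LOC105169642 (linkage group 8, plus strand, coding segment 20274351 to 20274590 in the deposited table) had 18, 22 and 25 counts in the SiCD_B pools, against 123, 131 and 158 counts in the SiCD_A pools. All SiCD_B pools lay far below all SiCD_A pools, although SiCD_A pool 3, with the most counts, was sequenced least deeply. Its level was 0.274 ± 0.0486 CPM in SiCD_B and 2.11 ± 0.603 CPM in SiCD_A (SD, n = 3 each). The log2 fold change was -2.93 (SE 0.28, edgeR adjusted p = 0.000258), which ranks 34th from the lowest among 21009 tested genes. Without SiCD_A pool 3 it was -2.69 (edgeR adjusted p = 0.000193). The gene lies on the linkage group of the allele, 15.2 Mb from KAN1.

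RADIALIS-like 3 is the product name of 3 genes on 3 other linkage groups, and 3 of these 3 fell by different amounts. LOC105166131 (linkage group 7, plus strand, 3727599 to 3727876) had 8, 16 and 16 counts in SiCD_B and 56, 68 and 40 counts in SiCD_A. Its level was 0.168 ± 0.0569 CPM in SiCD_B and 0.810 ± 0.112 CPM in SiCD_A, a log2 fold change of -2.26 (SE 0.34, edgeR adjusted p = 0.00158). The groups did not overlap.

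LOC105178001 (linkage group 15, minus strand, 5765533 to 5765793) had 38, 63 and 52 counts in SiCD_B and 114, 136 and 155 counts in SiCD_A. It averaged 0.642 ± 0.136 CPM in SiCD_B and 2.07 ± 0.602 CPM in SiCD_A, a log2 fold change of -1.68 (SE 0.27, edgeR adjusted p = 0.00214). Again no SiCD_B pool reached the lowest SiCD_A pool. Without SiCD_A pool 3, where its level was highest, the value was -1.44 (edgeR adjusted p = 0.00285).

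The third copy, LOC105159249 (linkage group 3, minus strand, 22570109 to 22570383), changed least. It had 84, 99 and 81 counts in SiCD_B, against 181, 100 and 113 counts in SiCD_A, or 1.11 ± 0.0657 CPM in SiCD_B and 1.97 ± 0.590 CPM in SiCD_A. The SiCD_B pools were close together at 1.06 to 1.18 CPM, while the SiCD_A pools spread over 1.37 to 2.55 CPM, with pool 2 not far above SiCD_B. The log2 fold change was -0.83 (SE 0.24, edgeR adjusted p = 0.0284). Leaving out SiCD_A pool 1 ended this call (-0.60, edgeR adjusted p = 0.105), as did leaving out SiCD_B pool 1, 2 or 3 (0.0643, 0.0696 and 0.0836) and the use of limma-voom (0.0514). The other 3 falls stayed called under each of the alternatives that tested them. Counts cannot separate reads of RADIALIS-like copies where their sequences are the same, and how such reads were counted is not given in the sources used here.

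**Figure D1:**
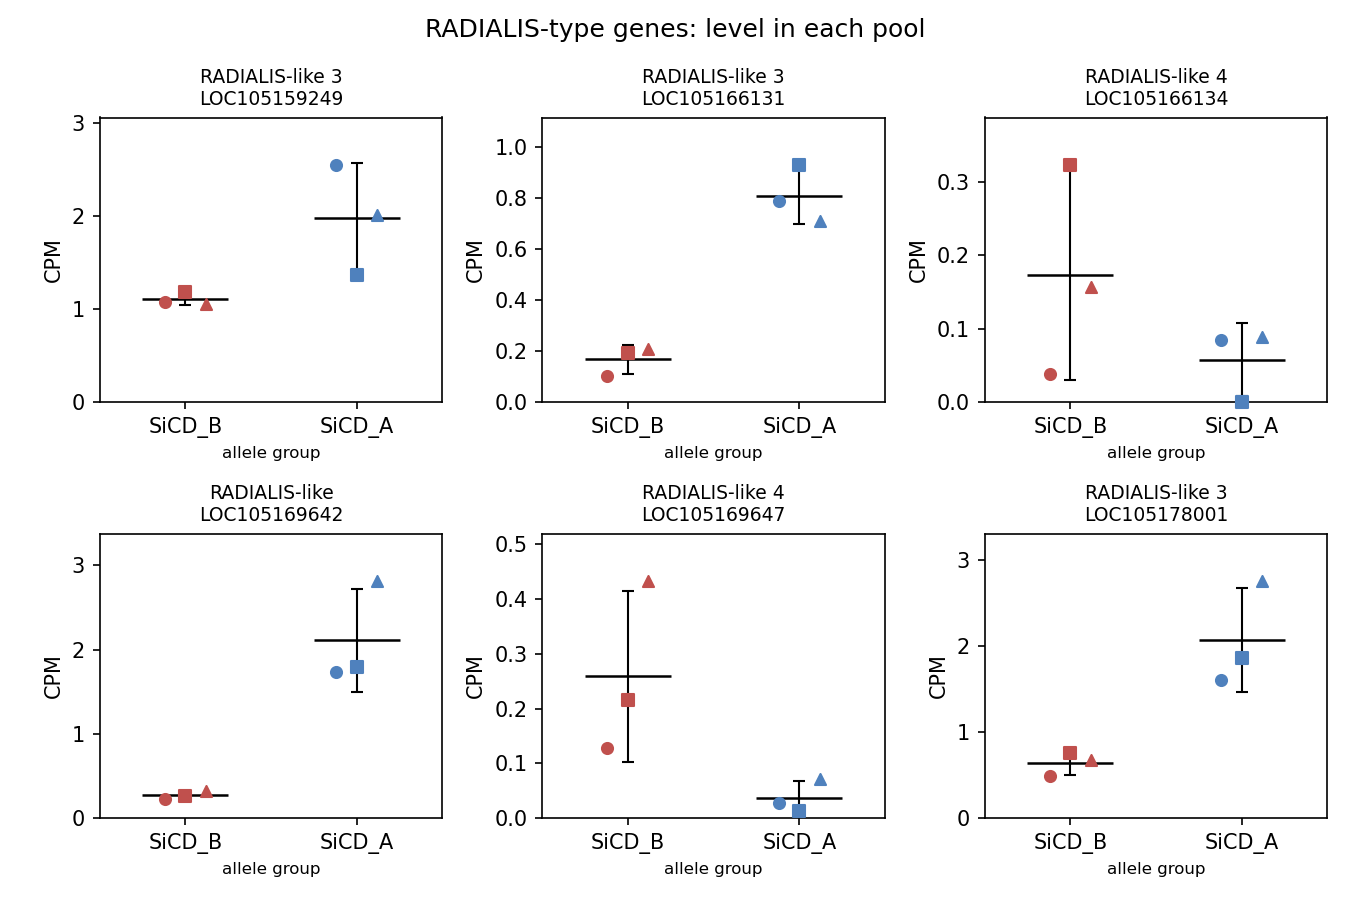
Level of each of the 6 RADIALIS-type genes in CPM (vertical axis, from 0, a scale of its own per panel) in the SiCD_B and SiCD_A groups. Circles, squares and triangles are pools 1, 2 and 3, horizontal lines are means and error bars are the SD of 3 pools. SiCD_B pools lie below SiCD_A pools for the 4 tested genes, while the 2 RADIALIS-like 4 genes stay under 0.5 CPM in each pool.

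The RADIALIS-like 4 genes had counts too low for the filter. LOC105169647 (linkage group 8, plus strand, 20290976 to 20291220) had 10, 18 and 33 counts in SiCD_B, against 2, 1 and 4 counts in SiCD_A. Each SiCD_B pool was above each SiCD_A pool, at 0.129 to 0.432 CPM in SiCD_B and 0.0137 to 0.0710 CPM in SiCD_A, and the ratio of the mean levels was 6.88. It reached the filter's level of 0.134 CPM in 2 SiCD_B pools and 0 SiCD_A pools, where 3 pools were required. With no filter its log2 fold change was 2.81 (SE 0.73, edgeR adjusted p = 0.0173 over 23751 genes), and the authors' deposited table gives 2.83 with an adjusted p of 0.00881. Where leaving out a pool brought it past the filter, it was called without SiCD_B pool 1 and without SiCD_A pool 3 (edgeR adjusted p = 0.0136 and 0.0181) and not without SiCD_A pool 1 or pool 2 (0.0692 and 0.0703).

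LOC105166134 (linkage group 7, minus strand, 3771969 to 3772231) had 3, 27 and 12 counts in SiCD_B and 6, 0 and 5 counts in SiCD_A. The groups overlapped, since SiCD_B pool 1 was below SiCD_A pools 1 and 3. A count of 0 allows up to 3 counts, which is 0.0365 to 0.0535 CPM before scaling over these libraries and covers counting error only. With no filter the log2 fold change was 1.62 (SE 0.94, edgeR adjusted p = 0.239), and a difference was not detectable at this depth.

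Each RADIALIS-like 4 gene has a fallen RADIALIS-type gene as a near neighbour. The coding segments of LOC105169642 and LOC105169647 on linkage group 8 are 16.4 kb apart, and those of LOC105166131 and LOC105166134 on linkage group 7 are 44.1 kb apart. On linkage group 8 the RADIALIS-like 4 gene took 35.7%, 45.0% and 56.9% of the counts of its pair in the SiCD_B pools, against 1.60%, 0.758% and 2.47% in the SiCD_A pools. On linkage group 7 that share was 27.3%, 62.8% and 42.9% in SiCD_B and 9.68%, 0% and 11.1% in SiCD_A. Such a share also grows when the partner alone falls. In SiCD_B pool 1 of the linkage group 7 pair it was 27.3% with 3 counts of LOC105166134 beside 8 of LOC105166131, fewer than the 6 and 5 counts of LOC105166134 in SiCD_A pools 1 and 3. The shares are a description with no test.

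Summed over the 6 RADIALIS-type genes, the level was 2.08, 2.93 and 2.87 CPM in the SiCD_B pools and 6.79, 5.97 and 8.43 CPM in the SiCD_A pools. The sum was thus lower in each mutant-allele pool. The RADIALIS-like 4 genes made up 0.168, 0.539 and 0.590 CPM of it in SiCD_B and 0.113, 0.0137 and 0.160 CPM in SiCD_A. Of the 6 genes, 5 have in the authors' deposited table an adjusted p under 0.05, the 4 lower genes and LOC105169647. A DESeq2 fit of the same counts called 6725 of the 23751 genes with at least 1 count. None of the 14 genes is in the authors' shorter table of 100 leading genes (0 of 14). That list is short beside the 20661 annotated genes, so the absence says little about the members.

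DIVARICATA-type transcripts showed small differences. Of 7 genes, 7 were tested, 1 was called higher and 0 lower, and 6 were not called, against 30.6% called among all tested genes. At an unadjusted p under 0.05 LOC105167079 was the only other. The authors' deposited table has 2 of the 7 under an adjusted p of 0.05, LOC105164009 and LOC105167079. A DESeq2 fit of the same counts called 6725 of 23751 genes. The log2 fold changes of the 7 ran from -0.31 to 0.47 with a median of 0.14, against 0.01 over all tested genes.

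DIVARICATA LOC105164009 (linkage group 6, minus strand, 7461195 to 7461622), the only copy named without the suffix "like", had 5034, 5396 and 5089 counts in SiCD_B and 4271, 4397 and 3175 counts in SiCD_A. Its level was 65.4 ± 1.11 CPM in SiCD_B and 58.9 ± 2.20 CPM in SiCD_A (SD, n = 3 each), with no overlap between groups. The log2 fold change was 0.15 (SE 0.04, edgeR adjusted p = 0.0280). The call was lost when any pool but SiCD_B pool 1 was left out (adjusted p = 0.0607 to 0.0927).

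DIVARICATA-like LOC105167079 (linkage group 7, minus strand, 11030775 to 11031157) went in the other direction. It had 411, 428 and 483 counts in SiCD_B and 496, 482 and 405 counts in SiCD_A, or 5.59 ± 0.650 CPM in SiCD_B and 6.93 ± 0.298 CPM in SiCD_A. The pools did not overlap once scaled, but the log2 fold change of -0.31 (SE 0.11, 95% interval -0.55 to -0.07) did not pass (edgeR adjusted p = 0.0569). It passed with DESeq2 (adjusted p = 0.0387) and without SiCD_B pool 3 (-0.41, 0.0323).

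The other 5 DIVARICATA-like genes were not called, and their 95% intervals limit the size of any difference. LOC105174541 (linkage group 11) averaged 20.2 ± 1.10 CPM in SiCD_B and 18.3 ± 1.22 CPM in SiCD_A, with no overlap and a log2 fold change of 0.14 (interval -0.02 to 0.30). LOC105174995 (linkage group 12) averaged 4.82 ± 0.683 CPM in SiCD_B and 4.08 ± 0.183 CPM in SiCD_A, with overlap and an interval of -0.05 to 0.53.

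LOC105161556 (linkage group 5) averaged 1.35 ± 0.250 CPM in SiCD_B and 0.980 ± 0.281 CPM in SiCD_A, and its interval, -0.13 to 1.06, was the widest of the 7. LOC105160914 (linkage group 4) averaged 2.33 ± 0.208 CPM in SiCD_B and 2.50 ± 0.411 CPM in SiCD_A, with an interval of -0.46 to 0.27. LOC105176579 (linkage group 14) averaged 2.61 ± 0.202 CPM in SiCD_B and 2.65 ± 0.433 CPM in SiCD_A, with an interval of -0.38 to 0.33. In each of these 3 genes the pools of the groups overlapped. The intervals of the families were not all apart: that of RADIALIS-like 3 LOC105159249, -1.36 to -0.29, overlaps that of DIVARICATA-like LOC105167079, -0.55 to -0.07.

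**Figure D2:**
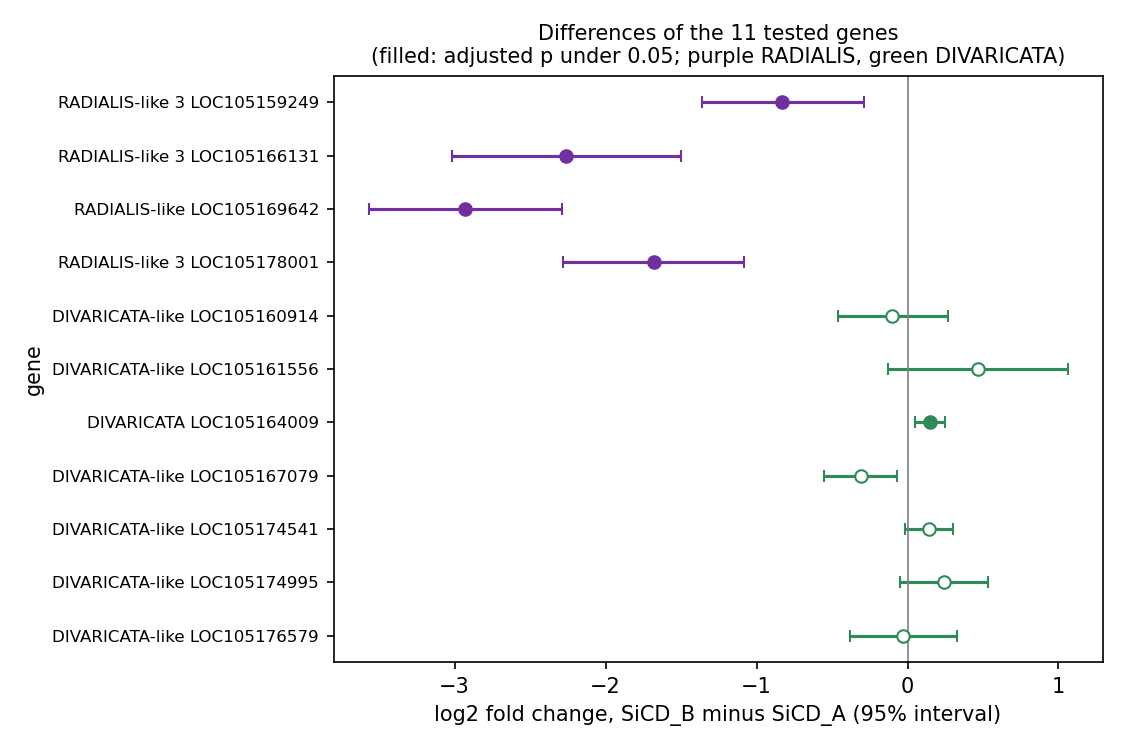
Log2 fold change of SiCD_B over SiCD_A (horizontal axis) with its 95% interval for the 11 tested genes, one per line. Purple points are RADIALIS-type and green points DIVARICATA-type, and filled points have an edgeR adjusted p under 0.05. The 4 RADIALIS-type genes lie between -2.93 and -0.83, and the 7 DIVARICATA-type genes between -0.31 and 0.47.

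**Figure D3:**
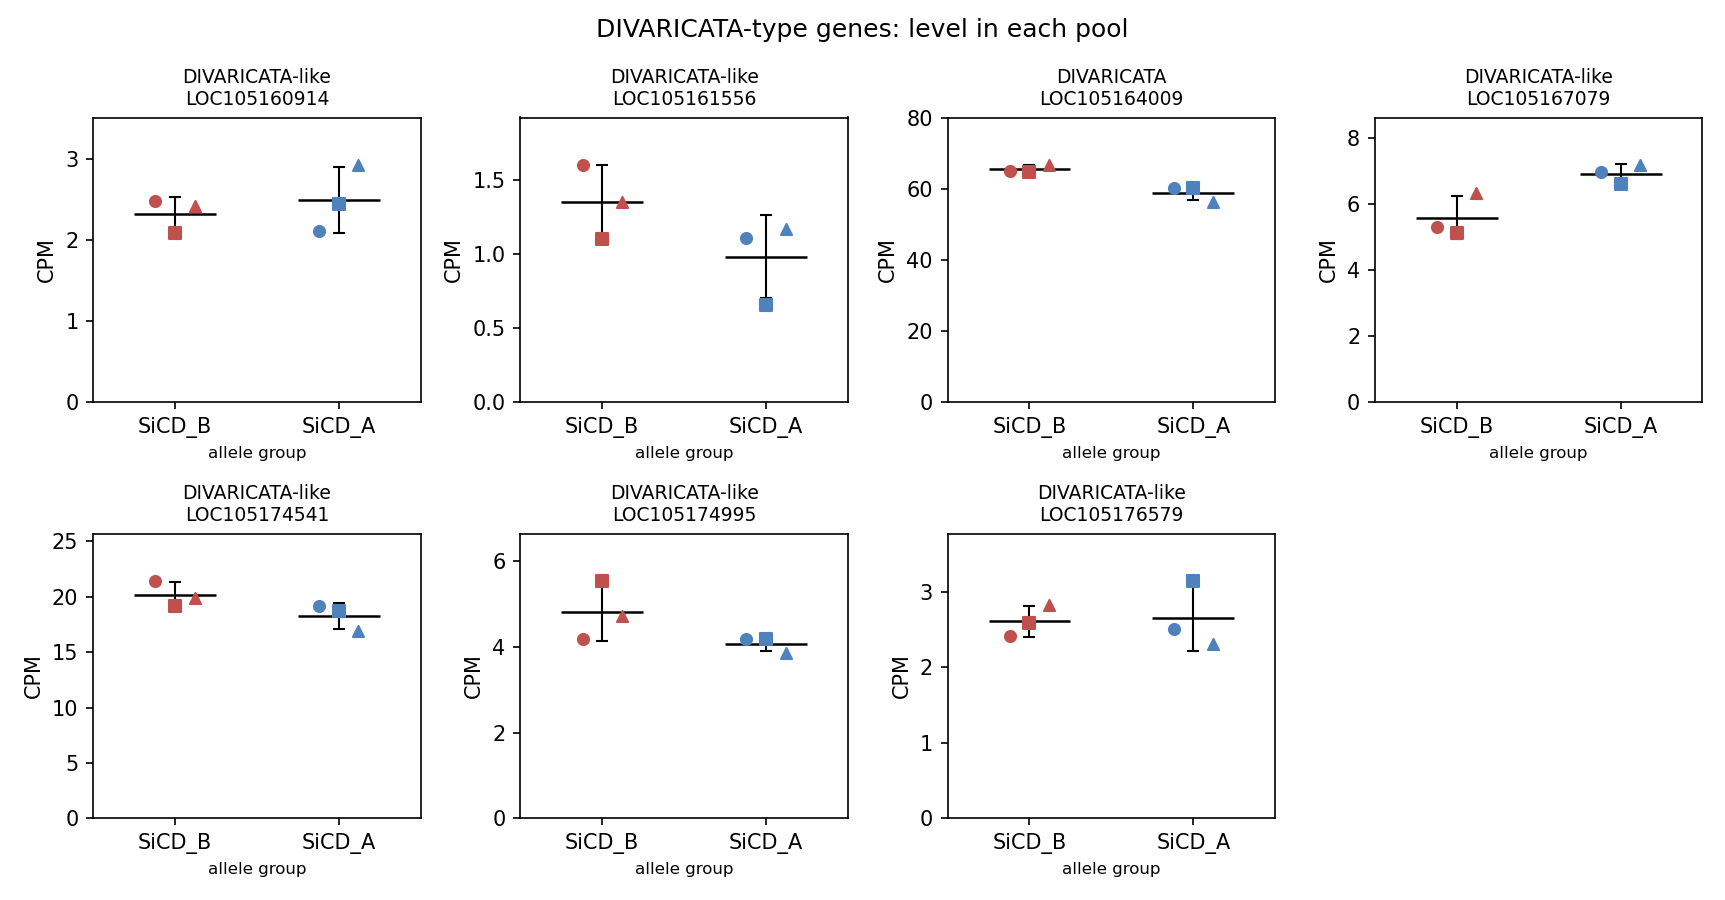
Level of each of the 7 DIVARICATA-type genes in CPM (vertical axis, from 0, a scale of its own per panel) in the SiCD_B and SiCD_A groups. Circles, squares and triangles are pools 1, 2 and 3, horizontal lines are means and error bars are the SD of 3 pools. Groups do not overlap for LOC105164009 and LOC105174541, which are higher in SiCD_B, nor for LOC105167079, which is lower in SiCD_B.

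CENTRORADIALIS (LOC105170009, linkage group 9, minus strand, 651218 to 651421) is named for a snapdragon gene that keeps the tip of the flowering shoot from turning into a flower. It had 14, 2 and 1 counts in SiCD_B and 8, 5 and 14 counts in SiCD_A. The pools of the groups overlapped, the gene did not reach the filter, and with no filter its log2 fold change was -0.93 (SE 0.88, edgeR adjusted p = 0.475).

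The surroundings of the RADIALIS-type genes were compared next, a step chosen after the first values had been seen. The 6 genes lie at 4 loci, on linkage groups 3, 7, 8 and 15, and the 5 nearest tested genes on each side of each gene make 44 distinct neighbours. Distances to neighbours are measured between the starts of coding segments, unlike the gaps between segments given above for the RADIALIS-type pairs. Of these, 9 were higher and 9 lower in SiCD_B (40.9% called, against 30.6% of all tested genes), and 2 were called at 2-fold or more (2.93% of all tested genes). Product names recur from locus to locus, with 7 names found at more than 1 locus. Sugar transporter ERD6-like 6 stands at 3 of the 4 loci, as does a zinc-finger homeodomain gene of type 5 or 6. Laccase-11, tubby-like F-box protein 5, an isoflavone reductase type, a receptor kinase named for At2g16250 and a protein named for At1g01500 stand at 2 loci each.

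At 3 loci a fallen RADIALIS-like 3 gene stood near a zinc-finger homeodomain gene that rose. Zinc-finger homeodomain proteins are plant transcription factors. On linkage group 3, zinc-finger homeodomain protein 5-like (LOC105159248), 2.86 kb from LOC105159249, rose by 0.82 on the log2 scale (SE 0.05, edgeR adjusted p = 3.95e-05). On linkage group 7, zinc-finger homeodomain protein 5 (LOC105166132), 7.18 kb from LOC105166131, rose by 0.93 (SE 0.08, adjusted p = 0.000185). On linkage group 15, zinc-finger homeodomain protein 6 (LOC105177998), 16.9 kb from LOC105178001, rose by 1.34 (SE 0.10, adjusted p = 0.000100). These are the 3 genes of type 5 or 6 in the annotated table. Of its 10 zinc-finger homeodomain genes 8 were called higher, against 16.5% of all tested genes. The rise was thus not limited to those beside RADIALIS-type genes. The sugar transporter genes at the same loci had log2 fold changes of -0.17 (LOC105159247), -0.09 (LOC105166133) and 0.63 (LOC105177996), of which the first was called (adjusted p = 0.0356).

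The linkage group 8 locus had no such gene among its neighbours. There the nearest tested neighbour of LOC105169642, the uncharacterized gene LOC105169644 (minus strand, 20278345 to 20278533), 3.99 kb away, also fell. It had 77, 126 and 112 counts in SiCD_B and 754, 685 and 770 counts in SiCD_A, a log2 fold change of -3.08 (SE 0.20, edgeR adjusted p = 7.68e-05). No SiCD_B pool came near a SiCD_A pool. It lies between the 2 RADIALIS-type genes of the locus. The next tested genes, the receptor kinase LOC105169640 at 13.2 kb on one side and the bHLH63 factor LOC105169649 at 25.7 kb on the other, had -0.02 and -0.12 and were not called. Whether a difference in sequence at this locus goes with the allele was not tested.

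**Figure D4:**
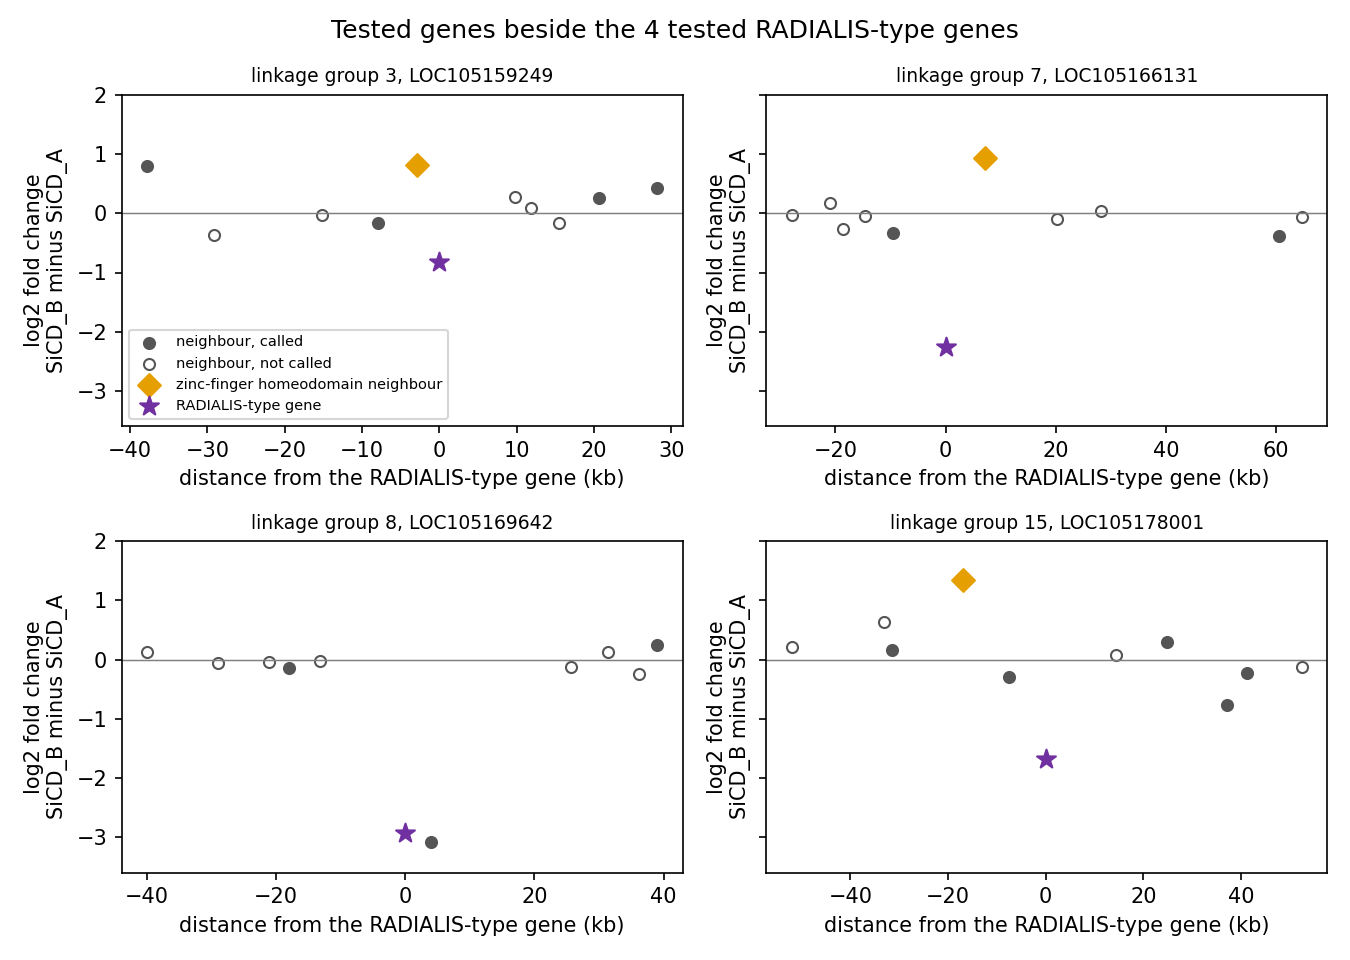
Log2 fold change of SiCD_B over SiCD_A (vertical axis) against distance in kb (horizontal axis) for the 5 nearest tested genes on each side of the 4 tested RADIALIS-type genes. Distance runs between the starts of coding segments. Purple stars are the RADIALIS-type genes, orange diamonds zinc-finger homeodomain genes, and filled and open circles other neighbours that were called or not called. The diamonds, all called, lie at 0.82 to 1.34 and the stars of the same panels at -2.26 to -0.83, and on linkage group 8 the neighbour LOC105169644 lies at -3.08 beside the star at -2.93.

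TCP factors, other MYB-like factors, expansins and KANADI genes were also counted, by their product names. The counts stand against 16.5% called higher, 14.1% lower and 30.6% either way among all tested genes, with a median of 0.01. TCP factors, the family of CYCLOIDEA, were higher for 9 and lower for 0 of 25 tested genes (median log2 fold change 0.22). The share called in either direction was not far from the 30.6% of all genes, but all 9 calls were higher. The share called higher was thus above the 16.5% of all genes. The 4 of smallest p were TCP14 (LOC105157037) at 0.97 (SE 0.11), TCP9 (LOC105171768) at 0.80 (SE 0.10), TCP23 (LOC105175721) at 0.30 (SE 0.04) and TCP5-like (LOC105177527) at 0.42 (SE 0.06). The 3 genes named TCP12, of the CYCLOIDEA branch of the family in Arabidopsis, were not called, with 0.33 (LOC105156741), 0.15 (LOC105162182) and 0.27 (LOC105162602). No product name in the table holds CYCLOIDEA. The count of lower TCP genes was 1 with DESeq2 size factors or upper-quartile factors and without SiCD_B pool 1.

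Other MYB-like factors with a short or DIVARICATA-related domain were higher for 3 and lower for 4 of 21 tested genes (median -0.02), about the share of all genes. The clock factor LHY-like (LOC105173131) fell to 1.82 ± 0.117 CPM in SiCD_B, against 3.88 ± 0.275 CPM in SiCD_A. MYBS3 (LOC105161836) fell by 0.39 on the log2 scale (SE 0.06), KUA1-like (LOC105173606) fell by 0.59 (SE 0.15), and MYB1R1 (LOC105168182) rose by 0.41 (SE 0.09). Only 1 was called higher when SiCD_B pool 2 or 3 or SiCD_A pool 1 or 2 was left out, and 2 were called lower when it was SiCD_A pool 1.

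Expansins, which loosen the wall during cell growth, were higher for 7 and lower for 2 of 21 tested genes (median 0.22). Among all tested genes 16.5% were higher and 14.1% lower. Expansin-A6 (LOC105174452) had 69.8 ± 5.04 CPM in SiCD_B and 47.1 ± 0.697 CPM in SiCD_A, and its log2 fold change was 0.57 (SE 0.06). The next by p were expansin-A10 (LOC105159984) at 0.59, another expansin-A6 (LOC105170419) at 0.38 and expansin-A6-like (LOC105161605) at 0.70. The number called lower was 4 when SiCD_B pool 1 was left out, and 1 when it was SiCD_B pool 2 or 3 or SiCD_A pool 2. KANADI genes were higher for 4 of 5, with KAN1 at 1.26 (SE 0.07). KAN1-like (LOC105178203) had 195, 172 and 182 counts in SiCD_B and 2, 11 and 6 counts in SiCD_A, so that it passed the filter through SiCD_B, and its log2 fold change was 4.59 (SE 0.36).

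Of the cell type markers, the lists of dividing cells and phloem had called shares far from the 16.5% higher and 14.1% lower of all tested genes. Of 14 mitotic cyclin genes, which mark dividing cells, 10 were higher and 0 lower in SiCD_B, and their summed level was 530 to 591 CPM in SiCD_B and 393 to 417 CPM in SiCD_A. Of 6 SIEVE ELEMENT OCCLUSION genes, which mark phloem, 6 were lower, with sums of 142 to 166 CPM in SiCD_B and 184 to 209 CPM in SiCD_A. Of 6 tested knotted-1-type homeobox genes, listed by name for the shoot meristem, 2 were higher and 0 lower. One of the higher genes was knotted-1-like 1 (LOC105172431), with 1.25 ± 0.435 CPM in SiCD_B and 0.228 ± 0.101 CPM in SiCD_A. Its SiCD_B pools had 1.45, 1.54 and 0.747 CPM. Knotted-1 (LOC105159076), not called, varied more between pools. It had 1.85, 1.63 and 0.262 CPM in SiCD_B and 0.0704, 0.233 and 0.763 CPM in SiCD_A. The names do not show that each gene marks meristem. The LET12 genes LOC105162276 (184 CPM in SiCD_B, 165 CPM in SiCD_A) and LOC105166408 (77.4 and 85.6 CPM) held most of the list's level in leaf and were not called. Of 20 leaf mesophyll markers, 1 was higher and 3 lower, a smaller share than the 30.6% of all genes. Their median log2 fold change was nevertheless -0.32, against 0.01 over all tested genes. The SiCD_A pools were uneven, with sums of 32804, 31558 and 21764 CPM in pools 1, 2 and 3. SiCD_B pools had 21944 to 25833 CPM. Of 18 tested genes of the flower organ list, 3 were higher, near the share of all genes, and 0 lower. That list was made by name and takes in agamous-like MADS genes such as AGL12, AGL19 and AGL27, so the count is not one of flower organ genes alone. The 3 were APETALA 2 (LOC105177600) at 0.53, APETALA 2-like (LOC105176219) at 0.38 and APETALA 1 A-like (LOC105180307) at 0.84 on the log2 scale. DEFICIENS (LOC105159317), at 2.43 ± 0.193 CPM in SiCD_B and 2.98 ± 0.0710 CPM in SiCD_A, was not called. Nor was GLOBOSA (LOC105164846), at 0.417 ± 0.159 CPM in SiCD_B and 0.387 ± 0.0352 CPM in SiCD_A. AGAMOUS (LOC105165579; 26, 11 and 11 counts in SiCD_B, 4, 3 and 4 in SiCD_A) did not pass the filter and was not tested. The same holds for AGAMOUS-like LOC105180190 (9, 14 and 13 counts in SiCD_B, 3, 1 and 4 in SiCD_A). In both, each SiCD_B pool was above each SiCD_A pool. For DEFICIENS the reverse held, with 2.27 to 2.64 CPM in SiCD_B and 2.90 to 3.03 CPM in SiCD_A. Among all tested genes 48.4% had no overlap in one direction or the other. Another AGAMOUS-like gene, LOC105167332, was tested and not called (-0.37). Of the 4 tested root markers, 0 were called. The part of the marker differences in the falls of the RADIALIS-type genes was not tested.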

How the data were processed

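RNA of 6 pools of young sesame leaf was sequenced in pairs of 100 bases from TruSeq version 2 libraries, a kind that carries no strand information. Tools in the submitters' processing notes are STAR, HTSeq, SAMtools, Trim Galore, DESeq2 and FastQC 0.11.4. No genome build is given in the sources used here. For 25762 genes the authors deposited raw counts, whole numbers without normalization. The deposited normalized signal was found to be those counts over a constant of each pool and entered no test. The authors' deposited table covers 20661 genes with log2 fold changes, p-values, a test score per gene and product names. Coordinates are those of the coding segment it lists. Linkage groups and gene order come from the RefSeq table of S_indicum_v1.0, where 14 of 14 genes matched.

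Differences were tested on the counts in edgeR 4.0.16 and R 4.3.3 (robust quasi-likelihood, TMM, filterByExpr, which here needs 0.134 CPM in 3 pools and 15 counts in all) on 21009 genes, without covariates. The standard error is the fold change divided by the root of the F statistic. Alternatives were DESeq2 1.42.0, limma-voom (limma 3.58.1), scaling by library size alone, upper-quartile or DESeq2 factors, no filter, a filter at 1 CPM in 3 pools, the pool number as a block, and leaving out each pool. Within groups, chi-square divided by its degrees of freedom was 5.32 to 30.4, more than counting error alone gives. Pools of a group were thus not the same reads divided up, but plants in common cannot be seen this way.

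The members, gene lists and marker lists were chosen with earlier results of these data known. All RADIALIS and DIVARICATA genes are named, KAN1, and up to 4 called genes of smallest p per list. Neighbours, TCP12 genes and single markers were named after their values were seen. YUCCA10, YUCCA11 and a calcyclin-binding gene, caught by parts of list words, were left out.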

Additional observations from a re-analysis of the deposited data

How the results depend on the processing

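Of 153 values of the 11 tested genes under the alternatives, 136 kept direction and side of the threshold, 10 lost the call, 3 gained it and 4 changed sign. The sign changes were in genes that were not called: LOC105176579, -0.03 in the reported fit, had 0.02 with library size alone and -0.12 to 0.11 without each pool in turn, and LOC105160914 had -0.21 to 0.02 without each pool. Called RADIALIS-named genes numbered 3 to 5 without each pool, 3 to 4 of them lower and 0 to 1 higher, and 1 was higher with no filter and with DESeq2. Called DIVARICATA-named genes numbered 2, with 1 lower, with DESeq2 and with the pool number as a replicate block, and 0 to 1 without each pool, 0 to 1 higher and 0 to 1 lower. Over all genes 6433 were called, and 3919 to 5998 without each pool, 2132 to 3118 higher and 1787 to 2895 lower, the fewest without SiCD_B pool 2. Of called genes 53.8% were higher, and 67.5% with library size alone. The cause of these shifts was not tested.

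Same-numbered pools had correlations of 0.0701, 0.00909 and 0.0565 between their deviations from the group means, under 0.1, so that the numbers were not taken to pair the pools, although each SiCD_B pool correlated best with its own number. The block gave 7181 calls over all genes and, besides LOC105167079 (adjusted p = 0.0391), changed no call among the 11 tested genes; of the TCP genes 2 were lower with it. Depth limits the RADIALIS-like 4 genes and CENTRORADIALIS, with 44, 53 and 68 counts in all.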
